A study of Mus musculus with 27 samples.

Results

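The gene expression of control C2C12 cells was compared between day 0 and day 7 of an adipogenic protocol, with no forskolin. C2C12 is an established line of mouse myoblasts, the dividing precursors of skeletal muscle fibers. The comparison used 6 of the 27 samples of the series, namely the 3 control samples at day 0 and the 3 control samples at day 7, and all of the 24825 genes listed. The other samples came from C2C12 cells that express full-length NFIA, a transcription factor, or its Δpro#3 mutant, and from cells given forskolin at day 7. The control cells are labelled only as control, and the labels do not name the vector they carried. Cells of all groups were grown in DMEM with fetal bovine serum. At confluence they received serum, isobutylmethylxanthine, indomethacin, dexamethasone, insulin, the thyroid hormone T3 and rosiglitazone (an agonist of the nuclear receptor PPARγ), and later serum, insulin, T3 and rosiglitazone. The time since confluence, the agents and the day of harvest changed together, so that their effects cannot be told apart. The cells were 1 line, and nothing in the labels says that the 3 replicates were separate cultures. The p-values then measure the spread between these samples, which may be technical.

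Myoblasts that stop dividing can fuse into myotubes, the multinucleated precursors of muscle fibers. This program is driven by the myogenic basic helix-loop-helix factors (MyoD, Myf5, myogenin and Myf6) together with the MEF2 factors, and ends in the assembly of the sarcomere, the contractile unit. C2C12 cells enter it when they become confluent. The adipogenic agents act on other receptors: dexamethasone on the glucocorticoid receptor, rosiglitazone on PPARγ, and T3 on the thyroid hormone receptors, while isobutylmethylxanthine raises cyclic AMP.

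The values were FPKM (fragments per length of the gene and depth of the sample), which the authors computed from uniquely mapped reads. Counted back from the FPKM, the day 0 samples held 23722429 to 27230965 fragments and the day 7 samples 11723458 to 16829083. All of the 8 myotube markers were called higher at day 7 and none of the 6 myoblast markers was called in either direction. Of the adipocyte markers, 4 of 6 passed the filter on low values. No endothelial marker passed it, and of 7 leukocyte markers only the lysosomal Cd68 did, with 2.28 FPKM at day 0 and 15.6 FPKM at day 7, while Ptprc had 5 and 1 fragments over the 3 samples and Cd3e had none. Of the markers of other cells, Cnn1 (smooth muscle), Scx (tendon), Sox9 (cartilage) and Tubb3 (neurons) were called lower. Sox9 was the only 1 of 6 cartilage markers above the filter, and Tubb3 the only 1 of 7 neural and glial markers. Of 4 tested tendon and fibroblast markers, the 3 besides Scx were not called, and 1 was positive. The other 4 tested smooth muscle markers, Acta2 among them (952 FPKM at day 0 and 1121 FPKM at day 7), had positive log2 fold changes of at most 1.33 and were not called. The call of Cnn1 was lost without day 7 replicate 3 (log2 fold change -1.49) and that of Sox9 with median-ratio scaling (-1.57). Of the 6 osteoblast and 6 epithelial markers, 1 each passed the filter, and neither was called. One library stood apart: replicate 2 at day 0 held 7.35 FPKM of Nfia, against 0.879 and 0.175 in the other two, and cells with introduced NFIA held 241.6 FPKM on average at day 0. It also had 1.40 FPKM of elastin (Eln), against 0.0438 and 0.00995. Without this library, 441 of the 454 genes called higher and 372 of the 378 called lower were still called.

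The promoters of 2 muscle genes that rose and 2 mitosis genes that fell are shown because their families moved most as a whole. They are the genes with the largest change in each family whose promoter held both of the short sequences sought in that family. The muscle promoters held CAGCTG, a sequence that myogenic helix-loop-helix factors are known to bind, and the MEF2 core (CTA and TAG with any 4 bases between them), which MEF2 factors recognize. The mitosis promoters held CCAAT, the box bound by NF-Y, and TTTGAA, the core of the cell cycle genes homology region. Sequences run 5′ to 3′ on the strand of the gene and end at the base before the start site (RefSeq, GRCm38.p6). Capitals mark every match to these 4 sequences or to TATAAA, on either strand.
Myoz2 promoter, chr3:123034988-123035237, minus strand: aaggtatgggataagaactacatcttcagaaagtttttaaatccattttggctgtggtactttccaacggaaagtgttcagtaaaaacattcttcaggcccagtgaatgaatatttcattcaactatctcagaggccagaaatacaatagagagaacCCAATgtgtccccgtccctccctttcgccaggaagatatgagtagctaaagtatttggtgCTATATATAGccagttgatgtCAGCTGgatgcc
Klhl41 promoter, chr2:69669870-69670119, plus strand: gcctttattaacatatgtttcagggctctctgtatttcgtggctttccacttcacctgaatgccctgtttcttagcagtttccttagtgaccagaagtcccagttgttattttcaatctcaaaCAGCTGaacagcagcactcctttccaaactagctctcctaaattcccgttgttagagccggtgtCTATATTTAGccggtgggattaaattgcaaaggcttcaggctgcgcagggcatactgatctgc
Mki67 promoter, chr7:135716380-135716629, minus strand: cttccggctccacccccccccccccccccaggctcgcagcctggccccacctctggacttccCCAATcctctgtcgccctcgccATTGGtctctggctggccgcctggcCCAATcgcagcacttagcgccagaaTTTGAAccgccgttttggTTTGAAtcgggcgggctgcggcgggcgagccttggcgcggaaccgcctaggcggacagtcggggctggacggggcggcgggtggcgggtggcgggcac
Top2a promoter, chr11:99024190-99024439, minus strand: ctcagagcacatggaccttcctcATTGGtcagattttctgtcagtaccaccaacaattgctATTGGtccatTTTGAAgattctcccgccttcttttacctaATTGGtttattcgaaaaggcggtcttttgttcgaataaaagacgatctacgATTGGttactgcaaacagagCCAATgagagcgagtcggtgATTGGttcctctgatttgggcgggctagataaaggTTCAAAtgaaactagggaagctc
In Myoz2, which encodes a Z-disc protein that binds calcineurin, the MEF2 core began at position -33 from the start site and CAGCTG at -12. In Klhl41, a regulator of sarcomere assembly, they began at -63 and -127. The Mki67 promoter held 3 CCAAT boxes and TTTGAA at -116 and -98, and the Top2a promoter held 6 CCAAT boxes.

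These sequences were sought in windows of 300 bases (250 before and 50 after the start site) for the 9375 tested genes with a RefSeq promoter. Matches on both strands counted, and matches to different sequences could overlap. Of the 36 mitosis genes with a promoter, 72.2% held CCAAT and 72.2% held TTTGAA, against 43.2% and 13.9% of all promoters. CCAAT was also in 71.4% of the 21 glucocorticoid-responsive promoters and in 58.6% of the 29 DNA replication promoters, and TTTGAA was in 14.3% and 10.3% of these. Among the mitosis genes that fell, 20 of 30 held both, against 5.76% of all. Of the 61 sarcomeric genes, 42.6% held CAGCTG, 19.7% held the MEF2 core and 29.5% held TATAAA, against 17.9%, 3.80% and 8.70% of all. Of the 42 sarcomeric genes that rose and had a promoter, 2 (4.76%) held CAGCTG and the MEF2 core together, against 0.651% of all. Both are printed above, and 2 genes are too few to set these shares apart. Over all the genes called higher, 29.3% held CAGCTG and 19.1% held TATAAA. Of those called lower, 20.4% held CAGCTG and 22.3% held TTTGAA. A match describes letters in a window, and binding was not measured.

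Between day 0 and day 7 of the control cells, many genes of the sarcomere and of excitation-contraction coupling rose, genes of mitosis fell, and a small set of adipocyte genes rose. Expression was tested on log2(FPKM + 1) with limma over the 12163 genes with a mean of at least 0.5 FPKM. Genes were called where the Benjamini-Hochberg adjusted p was under 0.05 and FPKM + 1 moved by over 3-fold, and "rose" and "fell" are used for called genes only. In all, 454 genes (3.73% of those tested) were called higher at day 7 and 378 (3.11%) lower. The counts depend on the added constant: with 0.1 added they were 701 and 746, and by limma-voom on the recovered fragments 742 and 765. Where 1 or 2 members of a list were called, the number is too small to be set apart from these background shares. With no fold threshold, 9839 genes (80.9%) passed the adjusted p, 4501 higher and 5338 lower. The median log2 fold change of all tested genes was -0.061. The 3 samples of day 0 and the 3 of day 7 did not overlap for any of the 832 called genes. This largely follows from the call itself, and the share without overlap over all tested genes was not counted. Rises were larger than falls: 103 genes were more than 10-fold higher and 14 more than 10-fold lower. Of the genes that rose, 165 had a day 0 mean under 1 FPKM, where the added 1 makes the fold smaller than the ratio of the FPKM.

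**Figure D1:**
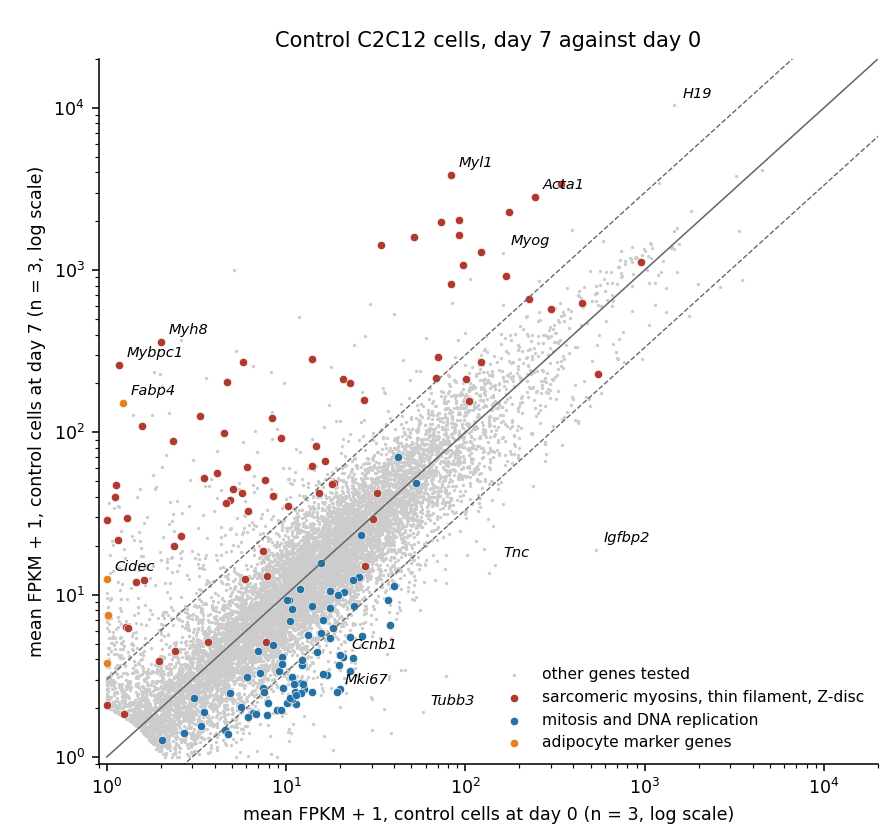
Mean FPKM + 1 of the 3 control samples at day 0 (horizontal, log axis) and at day 7 (vertical, log axis), 1 point per tested gene, with the sarcomeric lists, the mitosis and DNA replication lists and the adipocyte markers in color, a solid line of equal values and dashed lines at 3-fold. Most sarcomeric points lie above the upper dashed line and many mitosis points below the lower one, with Mybpc1, Myh8 and Fabp4 near the left edge and Tubb3 and Igfbp2 far below the diagonal.

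Among the 29 tested myogenic factors and cofactors, 7 rose and none fell, against 3.73% and 3.11% of all genes, with a median log2 fold change of -0.077. Myogenin (Myog, mm9 chromosome 1 from 136186581 to 136189124), the factor that starts terminal differentiation, was at 168, 156 and 161 FPKM in the 3 day 0 samples and at 1254, 1198 and 1374 FPKM in the 3 day 7 samples. The groups were far apart (log2 fold change 2.97 ± 0.059 (SE), adjusted p = 9.24e-10). Myod1, the determination factor, was at 40.9, 45.8 and 44.6 FPKM at day 0 and 71.3, 67.2 and 81.02 FPKM at day 7, a log2 fold change of 0.73 that stayed under the 3-fold threshold. Myf5, which marks undifferentiated myoblasts, was at 27.5, 30.1 and 28.02 FPKM and then at 24.6, 28.98 and 27.6 FPKM. Its groups overlapped (adjusted p = 0.29). Myf6 (MRF4), the last of the 4 to appear in muscle development, rose from 0.844, 0.765 and 0.768 FPKM to 109.7, 114 and 156 FPKM.

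Myogenin was the most abundant of these factors on both days and made up 68.85% of their summed FPKM at day 0 and 84.96% at day 7. Myf5 went from 12.2% to 1.81% of the sum and Myf6 from 0.338% to 8.37%, while the sum grew from 234.6 ± 2.33 to 1502 ± 121 FPKM (SD, n = 3). Of the 3 tested MEF2 factors, only Mef2c was called. It rose from 1.22 ± 0.0453 to 26.2 ± 1.34 FPKM (SD, n = 3), while Mef2a had a log2 fold change of 0.54 and Mef2d of 0.23. Mef2c made up 1.57% of the MEF2 FPKM at day 0 and 20.04% at day 7. The other genes of the list that rose were the muscle LIM protein Csrp3 (log2 fold change 7.14), the ankyrin repeat proteins Ankrd2 (5.28) and Ankrd1 (1.71), and the methyltransferase Smyd1 (1.86). The E protein partners of MyoD and the SRF cofactors had negative values that did not reach 3-fold, with log2 fold changes of -1.56 for Tcf4, -1.33 for Tcf3 and -1.14 for Mkl2. Among 16 tested inhibitors of myogenic factors, only the Notch target Hes1 was called, and it fell (log2 fold change -2.67 ± 0.0718 (SE), adjusted p = 4.25e-09). With 0.1 added, 2 of these inhibitors were called lower, and by limma-voom 3. The Id proteins, which sequester E proteins, were not called, with log2 fold changes of 0.12 (Id1, but -0.11 without day 7 replicate 3), -0.25 (Id2) and -0.19 (Id3).

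**Figure D2:**
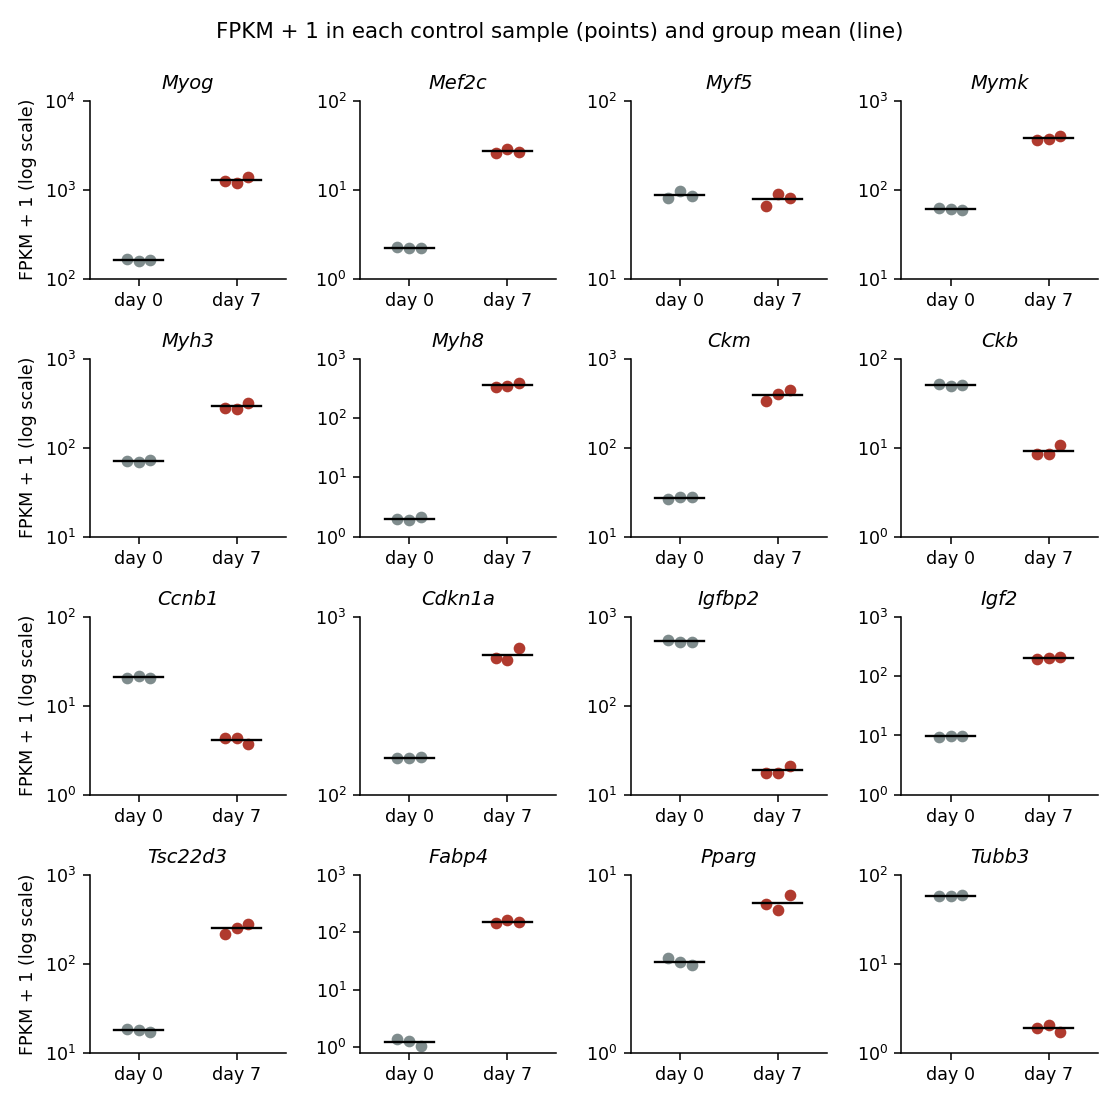
FPKM of 16 genes in each of the 3 control samples at day 0 and the 3 at day 7 (points, 1 panel per gene, vertical log axis of FPKM + 1 with its own range in each panel, lines at the means). Myog, Mymk, Myh8, Ckm, Igf2, Tsc22d3 and Fabp4 were higher in every day 7 sample, Ccnb1, Igfbp2, Ckb and Tubb3 were lower in every one, and the samples of Myf5 overlapped.

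Fusion genes rose in part. Of 25 tested genes for fusion, adhesion and membrane repair, 7 rose and 2 fell, against 3.73% and 3.11% of all genes, and the median log2 fold change was -0.69. Myomaker (Mymk), a membrane protein that myoblasts need to fuse, was at 61.4, 59.1 and 58.6 FPKM at day 0 and at 358, 373 and 402 FPKM at day 7 (log2 fold change 2.64 ± 0.0498 (SE), adjusted p = 7.94e-10). Its partner myomixer (Mymx) rose from 15.2, 13.8 and 15.4 FPKM to 43.8, 44.02 and 52.6 FPKM. Every day 7 sample of both genes was above every day 0 sample, and both were present at day 0. Mymx was close to the 3-fold threshold, and its call was lost without day 0 replicate 2 (log2 fold change 1.55) or day 7 replicate 3 (1.51). Other rises were those of caveolin-3 of the muscle membrane (Cav3, log2 fold change 4.88), Tmem182 (4.01), the integrin-binding melusin (Itgb1bp2, 3.43) and the membrane repair proteins MG53 (Trim72, 3.46) and dysferlin (Dysf, 1.91). The falls were those of the adhesion molecule Vcam1 (-1.87) and the exchange factor Dock5 (-1.71). M-cadherin (Cdh15), the myoblast cadherin, was at 138 ± 2.16 FPKM at day 0 and 49.3 ± 0.982 FPKM at day 7 (SD, n = 3), a log2 fold change of -1.47 under the threshold.

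The sarcomere showed the largest rises. Of 18 tested sarcomeric myosins and their binding proteins, 17 rose with a median log2 fold change of 4.34, of 21 thin filament genes 15 rose (median 3.302), and of 39 genes of the Z-disc, M-band and costamere 23 rose (median 2.24), against the background of 3.73% called higher. None of them fell. Together the 86 listed genes took up 1.30%, 1.30% and 1.31% of all fragments at day 0 and 5.98%, 6.06% and 6.80% at day 7. The groups did not overlap, and the 2-sided exact permutation test of 3 against 3 samples gave p = 0.1, the smallest it can give. In bulk RNA a larger share of differentiated cells and more RNA of a gene per cell cannot be told apart.

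The gene with the largest rise in FPKM + 1 was Mybpc1, which encodes slow myosin-binding protein C (mm9 chromosome 10 from 87981024 to 88067897). It was at 0.106, 0.166 and 0.231 FPKM at day 0 and at 228, 259 and 288 FPKM at day 7 (log2 fold change 7.79 ± 0.0828 (SE), adjusted p = 6.02e-11). Myh8, the neonatal myosin heavy chain, was at 0.981, 0.914 and 1.12 FPKM and then at 339, 349 and 391 FPKM (log2 fold change 7.49). Myh3, the embryonic heavy chain, was already at 69.1, 68.5 and 71.3 FPKM at day 0 and was at 280.5, 275 and 316 FPKM at day 7 (log2 fold change 2.04). All 3 were far apart between the days, and they differed in how much was present at the start. The summed FPKM of 8 sarcomeric heavy chains was 79.9 ± 1.83 at day 0 and 1102 ± 100.1 at day 7 (SD, n = 3). Myh3 made up 87.2% of that sum at day 0 and 26.4% at day 7. At day 7, Myh8 made up 32.7%, the adult fast chain Myh1 24.5%, the slow chain Myh7 8.90% and the fast chain Myh4 4.20%. Heavy chain genes are similar in sequence, so that the use of uniquely mapped reads makes their relative amounts less certain than the sum.

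The actins changed over in the same samples. Skeletal α-actin (Acta1) rose from 245 ± 7.86 to 2825 ± 242 FPKM and cardiac α-actin (Actc1) from 167 ± 5.65 to 916 ± 80.2 FPKM (SD, n = 3). Acta1 made up 5.69% of the summed FPKM of 5 actins at day 0 and 47.4% at day 7. Over the same time, the share of the cytoplasmic β-actin (Actb) went from 46.0% to 13.7% and that of γ-actin (Actg1) from 22.4% to 4.72%. Actg1 fell (log2 fold change -1.78 ± 0.0689 (SE), adjusted p = 3.19e-08), and Actb, with a log2 fold change of -1.28, did not reach 3-fold. The actins share long stretches of sequence, with the same limit. The smooth muscle actin Acta2 was at 949, 976 and 930.3 FPKM at day 0 and 1149, 1157 and 1056 FPKM at day 7 (log2 fold change 0.23).

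The troponins, which make the thin filament sensitive to calcium, rose in both their fast and slow forms. The log2 fold changes were 4.95 for the fast inhibitory subunit Tnni2, 4.45 for the slow Tnni1, 4.16 for the fast Tnnt3, 3.302 for the slow Tnnt1 and 3.397 for the cardiac and fetal Tnnt2. The share of Tnni1 in the summed troponin I was 63.8% at day 0 and 55.9% at day 7. The filament-capping leiomodins Lmod2 and Lmod3 rose by 5.45 and 3.87 on the log2 scale, and nebulin (Neb), the thin filament ruler, by 3.304. The tropomyosins were not called: Tpm2 had a log2 fold change of 1.55 and Tpm1 of 0.95, neither past 3-fold, and the cytoskeletal form Tpm4 one of -1.27.

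At the Z-disc, telethonin (Tcap), which links titin ends, rose from 0.756, 0.542 and 0.445 FPKM to 97.4, 98.3 and 131 FPKM (log2 fold change 6.11). Myotilin (Myot) had no fragment in the 3 day 0 samples and was at 23.1, 29.2 and 30.7 FPKM at day 7, at least 1569-fold higher when 3 fragments are allowed over the day 0 group. Titin (Ttn), the giant elastic protein, went from 7.5 ± 1.05 to 39.6 ± 2.88 FPKM and α-actinin-2 (Actn2) from 1.34 ± 0.28 to 87.4 ± 7.31 FPKM (SD, n = 3). Myoz2 and Klhl41, whose promoters are printed above, rose by 5.24 and 4.34 on the log2 scale. Not all of the list reached 3-fold: desmin (Des), the intermediate filament of muscle, had a log2 fold change of 0.49 (adjusted p = 4.78e-05), from 445 ± 7.75 to 628 ± 47.6 FPKM (SD, n = 3). Dystrophin (Dmd) went from 0.00591, 0.00258 and 0.00269 FPKM to 0.971, 1.25 and 1.04 FPKM, and its call turned on the added constant, with a log2 fold change of 1.05 when 1 FPKM was added and 3.51 (called) when 0.1 was added.

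**Figure D3:**
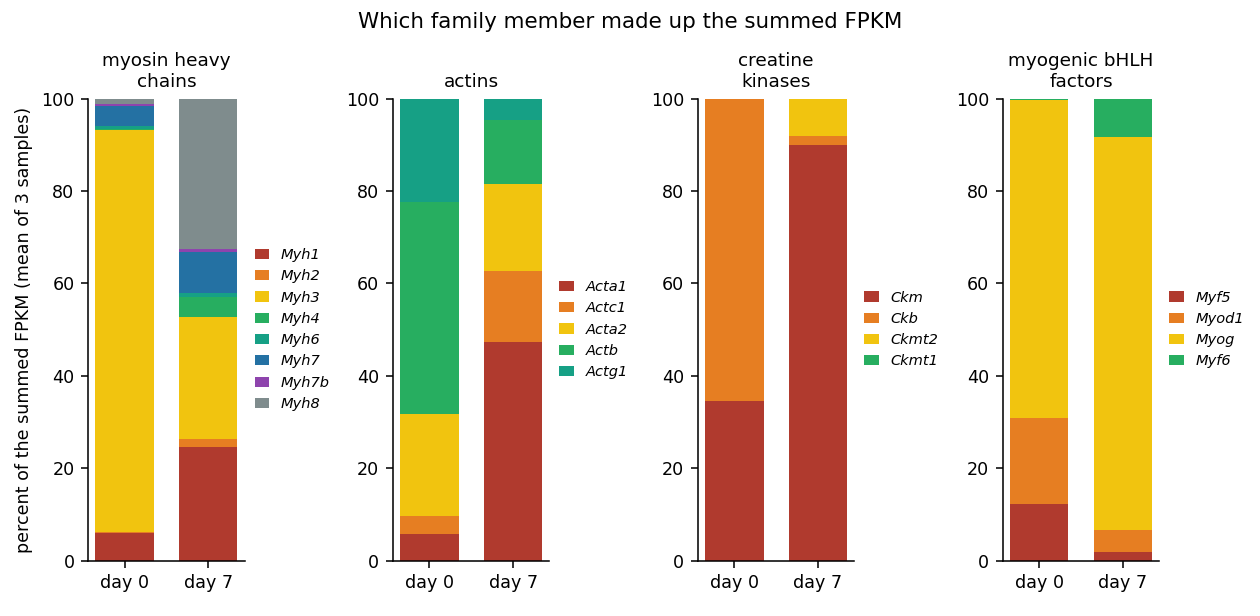
Composition of 4 gene families at day 0 and day 7, as the percent of the family's summed FPKM in the 3 control samples (mean). Myh3 goes from 87.2% to 26.4% of the myosin heavy chains, Acta1 from 5.69% to 47.4% of the actins and Ckm from 34.6% to 90.0% of the creatine kinases, while Myog stays the main myogenic factor.

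Of the 28 tested genes of excitation-contraction coupling, 16 rose and 1 fell, against 3.73% and 3.11% of all genes. Calsequestrin 1 (Casq1), the calcium store of fast fibers, rose from 0.922, 1.16 and 1.02 FPKM to 179, 172 and 222 FPKM (log2 fold change 6.55 ± 0.0924 (SE), adjusted p = 2.29e-10). The calcium pump Atp2a1 rose by 4.401 on the log2 scale, parvalbumin (Pvalb), a calcium buffer, by 4.87, the voltage sensor Cacna1s by 3.05 and the ryanodine receptor Ryr1 by 2.03. The slow and cardiac pump Atp2a2 had a log2 fold change of 1.43 and was not called. The one fall was that of the potassium channel Kcnj2 (-1.68). At the neuromuscular junction, 2 of 18 tested genes rose, against 3.73% of all genes. They were the acetylcholine receptor subunits Chrng, the embryonic form, from 47.4, 49.6 and 47.9 FPKM to 205, 199.9 and 224 FPKM, and Chrne, the adult form, from 1 fragment over the 3 day 0 samples to 2.76, 2.24 and 2.68 FPKM. The embryonic subunit made up 98.8% of their summed FPKM at day 7. Chrna1 and the scaffold Rapsn had log2 fold changes of -0.302 and -0.33.

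Energy genes rose in part: 12 of 35 tested genes rose and 1 fell, against 3.73% and 3.11% of all genes, with a median log2 fold change of 1.14. Muscle creatine kinase (Ckm), which regenerates ATP from phosphocreatine, was at 25.7, 27.2 and 26.8 FPKM at day 0 and at 332, 402 and 446 FPKM at day 7 (log2 fold change 3.83 ± 0.0924 (SE), adjusted p = 2.2e-09). The brain form Ckb, the one fall, was at 51.6, 49.1 and 50.4 FPKM and then at 7.59, 7.598 and 9.696 FPKM (log2 fold change -2.47 ± 0.0819 (SE), adjusted p = 1.37e-08). The groups did not overlap for either gene, and Ckm went from 34.6% to 90.0% of the summed creatine kinase FPKM. Other rises were those of the muscle forms of glycolysis and glycogen breakdown (Pgam2 5.901, Pygm 3.91 and Pfkm 1.85 on the log2 scale), of myoglobin (Mb, 5.42) and of the heart and muscle forms of cytochrome oxidase subunits (Cox6a2 4.83, Cox8b 3.898 and Cox7a1 3.64). The insulin-responsive glucose transporter Slc2a4 (GLUT4) rose from 0.223, 0.207 and 0.162 FPKM to 21.5, 23.7 and 25.6 FPKM and from 0.461% to 19.7% of the FPKM of 3 glucose transporters, of which Slc2a1 remained the main one. The coactivator Ppargc1a, a regulator of mitochondrial genes, had a log2 fold change of 0.63. Outside the list, Nmrk2, a kinase of nicotinamide riboside, was among the largest rises (1.15, 0.918 and 0.916 to 200.5, 199 and 287 FPKM).

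**Figure D4:**
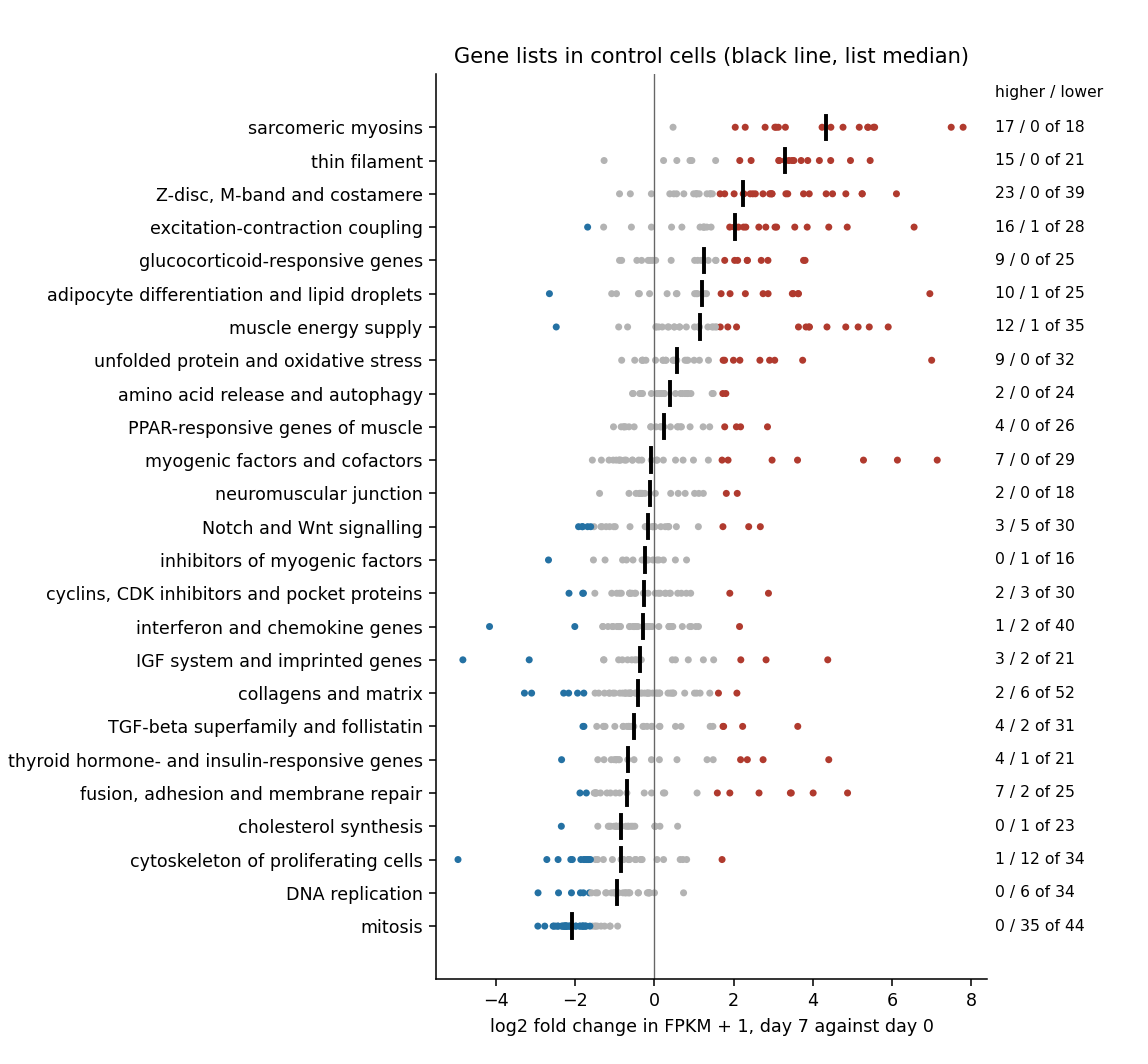
Log2 fold change in FPKM + 1 from day 0 to day 7 for each tested gene of 25 gene lists (points, called genes in color) with the median of each list (black line) and, at the right, the number called higher and lower of those tested. The 3 sarcomeric lists lie highest, with medians of 4.34, 3.30 and 2.24, and all 44 genes of the mitosis list lie below 0, with a median of -2.08.

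Genes of cell division fell. Of the 44 mitosis genes, all of them tested, 35 fell and none rose (background 3.11% called lower), and all 44 had negative log2 fold changes with a median of -2.08. Cyclin B1 (Ccnb1), the mitotic cyclin, was at 19.8, 20.4 and 19.5 FPKM at day 0 and at 3.37, 3.36 and 2.69 FPKM at day 7 (log2 fold change -2.34 ± 0.0717 (SE), adjusted p = 8.73e-09). Mki67, the proliferation antigen Ki-67 whose promoter is printed above, was at 17.2, 18.2 and 19.2 FPKM and then at 1.55, 1.57 and 1.41 FPKM, and Top2a, the DNA topoisomerase of dividing cells, at 36.7, 36 and 38.2 FPKM and then at 6.13, 5.59 and 4.76 FPKM. Neither the day 0 nor the day 7 samples of these genes overlapped with the other day, and transcripts of all 3 were still found at day 7. The smallest change of the list was that of Cdk1 (-0.92).

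Of 34 tested DNA replication genes, 6 fell, against 3.11% of all genes, none rose, and the median was -0.95. With 0.1 added or by limma-voom 11 fell, where 746 and 765 of all genes were called lower. Thymidine kinase Tk1 fell most (log2 fold change -2.93 ± 0.0856 (SE), adjusted p = 6.7e-09), followed by the methylation maintenance factor Uhrf1 (-2.42) and the helicase subunit Mcm5 (-2.09). The polymerase clamp Pcna was at 52 ± 0.863 FPKM at day 0 and 47.7 ± 1.41 FPKM at day 7 (log2 fold change -0.12). The ribonucleotide reductase subunit Rrm2 was at 41.8, 40.4 and 41.4 FPKM and then at 65.6, 66.2 and 76.8 FPKM, a log2 fold change of 0.74 and 1 of the 2 positive values of the list. Together, the mitosis and DNA replication lists took up 0.322% ± 0.00457 of the fragments at day 0 and 0.108% ± 0.00338 at day 7 (SD, n = 3, exact permutation p = 0.1, the smallest possible).

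Among 30 cyclins, CDK inhibitors and pocket proteins, 2 rose and 3 fell, numbers too small to be set apart from the 3.73% and 3.11% of all genes. The CDK inhibitor p21 (Cdkn1a), which holds myotubes out of the cycle, was at 160.5, 159.6 and 162 FPKM at day 0 and at 585, 570.2 and 664 FPKM at day 7 (log2 fold change 1.91 ± 0.0593 (SE), adjusted p = 9.39e-09), and Gadd45a, a growth arrest gene, rose by 2.88 on the log2 scale. The falls were those of cyclin D1 (Ccnd1, -1.79), E2f2 (-2.15) and E2f7 (-1.81). Cyclin D3 (Ccnd3), the D-type cyclin that muscle keeps, had a log2 fold change of 0.92, under 3-fold. The retinoblastoma gene Rb1 (0.27) and the inhibitors Cdkn1b (-0.49) and Cdkn1c (-0.57) also stayed under it.

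Of 34 tested genes for the cytoskeleton of proliferating cells, 12 fell and 1 rose, against 3.11% and 3.73% of all genes. Tubb3, the class III β-tubulin best known from neurons, was at 56.3, 56.8 and 58 FPKM at day 0 and at 0.914, 1.03 and 0.693 FPKM at day 7, the largest fall in FPKM + 1 (log2 fold change -4.95 ± 0.0687 (SE), adjusted p = 2.12e-10). Igfbp2, which binds insulin-like growth factors, was at 541, 524 and 527 FPKM and then at 16.8, 16.4 and 20.2 FPKM (log2 fold change -4.83 ± 0.0711 (SE), adjusted p = 2.54e-10). The groups did not overlap for either gene. Among the 12 largest falls in FPKM + 1, the order was another by the plain ratio of the day 0 to the day 7 mean FPKM: Tmc3 (156) and Gfra1 (91.2) came before Tubb3 (64.7), which was followed by Ptn (61.6), Mir703 (35.98), Ifitm1 (35.3) and Igfbp2 (29.8). These 12 also held the GDNF receptor Gfra1 (log2 fold change -4.77), the stathmin Stmn2 (-3.75), the growth cone protein Gap43 (-3.74) and the dynein intermediate chain Dync1i1 (-3.69). Of 7 neural and glial markers, only Tubb3 passed the filter on low values. The remaining large falls were those of the growth factor pleiotrophin (Ptn, -4.36), the proteoglycan Sdc3 (-3.67), Ifitm1 (-4.16), Plac8 (-3.67), Tmc3 (-4.04) and the entry Mir703 (-4.75), which in polyadenylated RNA does not measure a mature microRNA. Among structural genes, the tubulin-binding Stmn1 (-2.71), lamin B1 (Lmnb1, -2.43), nonmuscle myosin Myh10 (-2.105) and vimentin (Vim, -1.75) fell.

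Of 52 tested collagens and matrix genes, 6 fell and 2 rose, against 3.11% and 3.73% of all genes, and the median was -0.42. Tenascin C (Tnc), a matrix protein of growing and wounded tissue, was at 139.7, 146 and 152 FPKM at day 0 and at 16.6, 14.8 and 11.4 FPKM at day 7 (log2 fold change -3.28 ± 0.11 (SE), adjusted p = 1.47e-08). The crosslinking enzyme Loxl2 (-3.09), the protease Mmp14 (-1.94) and fibronectin (Fn1, -1.78) also fell, as did Col5a3 (-2.29) and Col16a1 (-2.16). The rises were those of Col11a1 (2.08) and Col25a1 (1.62), a membrane collagen of muscle, whose call was lost without day 7 replicate 1 (1.58) or replicate 3 (1.58). The main fibrillar collagens were present at high levels on both days: Col1a1 at 276 ± 12.8 and 217 ± 13.96 FPKM and Col3a1 at 1503 ± 34.5 and 968 ± 85.6 FPKM (SD, n = 3), with log2 fold changes of -0.35 and -0.64.

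The genes that respond to the agents of the protocol were listed separately. Of 25 tested glucocorticoid-responsive genes, 9 rose and none fell, against 3.73% and 3.11% of all genes, with a median log2 fold change of 1.24. Tsc22d3 (GILZ), a direct target of the glucocorticoid receptor, was at 17.5, 16.99 and 16.2 FPKM at day 0 and at 215, 254 and 282 FPKM at day 7 (log2 fold change 3.804 ± 0.0868 (SE), adjusted p = 1.73e-09). Fkbp5, the receptor's cochaperone, rose from 5.24, 5.75 and 5.801 FPKM to 36.5, 42.96 and 46.6 FPKM. Zbtb16 (PLZF) had no fragment at day 0 and was at 5.404, 7.19 and 6.41 FPKM at day 7, at least 832-fold higher with 3 fragments allowed over the day 0 group. The 2 ubiquitin ligases of muscle atrophy parted: MuRF1 (Trim63), which also belongs to the Z-disc list, rose by 3.77 on the log2 scale, while atrogin-1 (Fbxo32) had a log2 fold change of -0.88. Dusp1, another known target, was at 32.3 ± 0.863 and 17.9 ± 1.79 FPKM (log2 fold change -0.82), and the receptor itself (Nr3c1) had a log2 fold change of -0.11. Metallothionein 2 (Mt2) rose (2.03), and its close paralog Mt1 had a log2 fold change of 1.09.

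Of 26 tested PPAR-responsive genes of muscle, 4 rose and none fell, against 3.73% and 3.11% of all genes, and the median was 0.24. The rises were those of the muscle fatty acid-binding protein Fabp3 (2.86), the uncoupling protein Ucp3 (2.18), the thioesterase Acot2 (2.07) and Pdk4 (1.78), a kinase that holds back glucose oxidation and also responds to glucocorticoids. Angptl4, an inhibitor of lipoprotein lipase and a common PPAR target, was at 7.24, 8.01 and 7.13 FPKM at day 0 and 11.1, 13.5 and 11.03 FPKM at day 7 (log2 fold change 0.599), and the lipid droplet coat Plin2 had a log2 fold change of -0.76. Of 21 thyroid hormone- and insulin-responsive genes, 4 rose and 1 fell, against the same shares. The T3-regulated Klf9 (2.35) and the deiodinase Dio2 (2.74) rose with Ucp3 and Atp2a1, and the insulin receptor substrate Irs1 fell (log2 fold change -2.34 ± 0.0576 (SE), adjusted p = 2.46e-09). Of 23 tested genes of cholesterol synthesis, 1 fell, against 3.11% of all genes, and none rose. The list had a median of -0.83, with 18 of 23 genes negative.

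A part of the adipocyte program was also found. Of 25 tested genes of adipocyte differentiation and lipid droplets, 10 rose and 1 fell, against 3.73% and 3.11% of all genes, and 14 of the 39 listed genes were under the filter. Listed genes near 0 at day 0 passed the filter only through their day 7 values, so that they could rise but not fall. Fabp4 (aP2), the fatty acid-binding protein of adipocytes, was at 0.371, 0.27 and 0.0563 FPKM at day 0 and at 142, 161 and 150.3 FPKM at day 7 (log2 fold change 6.95 ± 0.0935 (SE), adjusted p = 1.82e-10). Cidec, a lipid droplet protein, had no fragment at day 0 and was at 9.66, 13.5 and 11.3 FPKM at day 7, at least 506-fold higher with 3 fragments allowed over the day 0 group. Adiponectin (Adipoq) was at 0, 0 and 0.0311 FPKM and then at 5.17, 8.05 and 6.23 FPKM, and perilipin 1 (Plin1) at 0.022, 0 and 0 FPKM and then at 2.98, 2.64 and 2.76 FPKM. Every day 7 sample was above every day 0 sample for these 4 genes. The other rises were those of Cox7a1 (3.64), Gpd1 (3.51), the fatty acid transporter Cd36 (3.48), Dio2 (2.74), lipoprotein lipase (Lpl, 2.298) and Plin4 (1.69), several of which muscle also uses. The call of Plin4 was lost without day 7 replicate 2 (1.58). The fatty acid elongase Elovl6 fell (-2.64).

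The master regulators did not reach 3-fold. Pparg was at 2.43, 2.25 and 2.095 FPKM at day 0 and 5.85, 5.32 and 6.68 FPKM at day 7 (log2 fold change 1.09), Cebpa at 6.64, 7.28 and 6.18 FPKM and 8.305, 8.46 and 9.11 FPKM (log2 fold change 0.32), and fatty acid synthase (Fasn) had a log2 fold change of -0.95. The 3 day 7 samples of Pparg were all above those of day 0. Of 6 adipocyte markers, 4 rose (Fabp4, Cidec, Adipoq and Plin1), Lep was listed at 0 in all 6 samples, and Cfd was under the filter. These 4 were under 0.5 FPKM at day 0 and passed the filter only through their day 7 values. The filter thus left no adipocyte marker that could have fallen. Of 6 markers of brown adipocytes, Cox8b and Dio2 rose, and Ucp1, Cidea, Elovl3 and Ppara were under the filter. At day 7 the 3 control samples held Fabp4 at 1.24%, 1.41% and 1.32% of the mean of cells with introduced NFIA at day 7. For Adipoq this was 1.16%, 1.81% and 1.40%, for Cidec 1.26%, 1.76% and 1.47%, and for Plin1 0.868%, 0.767% and 0.804%. Nfia itself was at 0.0184%, 0.0525% and 0.0184% of that mean, and Clec3b, high in those cells, at 0.111%, 0.201% and 0.240%. Eln was at 2.16%, 1.79% and 2.33%, Fmod at 0.272%, 0.185% and 0.354%, and Sfrp2, which control cells also held at day 0, at 37.4%, 35.2% and 34.4%. The part that RNA from other cultures had in the adipocyte values was not tested.

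Of 21 tested genes of the IGF system and imprinted genes, 3 rose and 2 fell, against 3.73% and 3.11% of all genes. Igf2, a growth factor that myoblasts make as they differentiate, was at 8.52, 8.68 and 8.83 FPKM at day 0 and at 190.1, 204 and 206 FPKM at day 7 (log2 fold change 4.38 ± 0.0431 (SE), adjusted p = 3.82e-11). H19, the noncoding RNA of the same imprinted region, was at 1454, 1483 and 1446 FPKM at day 0 and at 9732, 10204 and 11078 FPKM at day 7 (log2 fold change 2.82). H19 alone took up 0.334% of all fragments at day 0 and 2.37% at day 7, and it was the gene with the highest FPKM at day 7, ahead of Eef1a1, Myl1 and Tpt1. At day 0 the highest were Eef1a1, S100a4, Lgals1 and Tpt1. Grb10 rose (2.18), Mest fell (-3.15), and Igf1 had a log2 fold change of 1.24.

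Of 31 tested genes of the TGF-beta superfamily, 4 rose and 2 fell, against 3.73% and 3.11% of all genes. Follistatin (Fst), which blocks myostatin and activins, was at 1.67, 2.26 and 1.65 FPKM at day 0 and at 30.9, 32.3 and 39.2 FPKM at day 7 (log2 fold change 3.62 ± 0.106 (SE), adjusted p = 6.86e-09). The ligand Gdf5 and the antagonists Fstl3 and Chrd also rose (2.23, 1.75 and 1.73), and Bmp1 (-1.799) and Fstl1 (-1.77) fell. Of 30 Notch and Wnt genes, 3 rose and 5 fell, against the same shares. The receptor Notch3 (-1.82), the ligand Wnt10b (-1.91), which holds back adipocyte differentiation, and the transcription factor Lef1 (-1.81) fell, and Wisp2 (2.68), Sfrp4 (2.38) and Dkk2 (1.73) rose.

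Of 40 tested interferon and chemokine genes, 1 rose (Ccl8, 2.15) and 2 fell (Ifitm1 and Cxcl5, the latter -2.005), near the background of 3.73% and 3.11%. With 0.1 added or by limma-voom, where more genes were called in all, 2 rose and 5 fell. Of 32 genes of the unfolded protein and oxidative stress responses, 9 rose and none fell, against 3.73% and 3.11% of all genes. Of these, 6 were small heat shock proteins, which are abundant in muscle: Hspb7 (6.997, from 0.822, 0.769 and 0.9 FPKM to 215, 210.2 and 279 FPKM), Hspb8 (3.74), Cryab (3.04), Hspb3 (2.91), Hspb6 (2.16) and Hspb2 (1.998). The other 3 were the stress factors Atf3 (2.66), Ddit3 (1.77) and Trib3 (1.74), while the chaperone Hspa5 had a log2 fold change of 0.49. Of 24 genes of amino acid release and autophagy, Bnip3 (1.81) and Asb5 (1.73) rose. Among the 12 largest rises, those outside the lists were, besides Nmrk2, those of Ctla2a, a protease inhibitor with a near-identical neighbour gene (4.51, 4.21 and 3.74 to 932, 1023 and 1022 FPKM), 4930486L24Rik (6.52) and the muscle protein Smpx (5.92).

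The change from day 0 to day 7 was then compared with that of both other cell types (NFIA cells and Δpro#3 cells), in a fit of 18 samples and 12408 genes with an interaction term. The differences are those of the control cells' log2 fold change minus that of the other cells. They depend on the day 0 level as well as on the day 7 level. Against full-length NFIA cells, 8835 genes differed at an adjusted p under 0.05. Of these, 384 (3.09% of those tested) were more positive in control cells and 562 (4.53%) more negative by over 3-fold. Against Δpro#3 cells, 5550 differed, 102 (0.822%) more positive and 191 (1.54%) more negative by over 3-fold. In NFIA cells, 5.38% of all genes were called higher at day 7 and 4.71% lower, and in Δpro#3 cells 3.91% and 2.93%. Of 453 genes called higher in control cells and tested here, 221 were called higher in NFIA cells and 313 in Δpro#3 cells. Of the 378 called lower, 163 and 194 were called lower there.

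**Figure D5:**
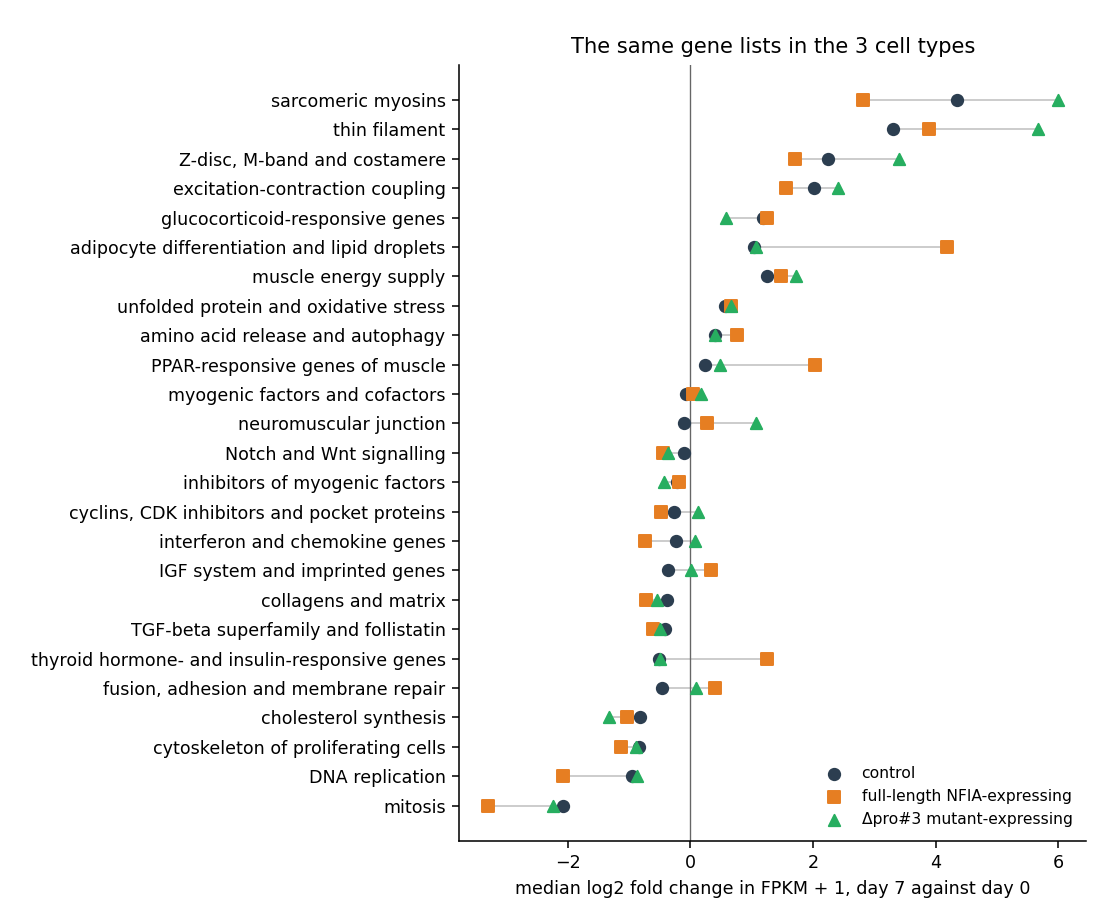
Median log2 fold change in FPKM + 1 from day 0 to day 7 of 25 gene lists in control cells (circles), cells expressing full-length NFIA (squares) and cells expressing the Δpro#3 mutant (triangles), from the fit of 18 samples. For the sarcomeric myosins the medians are 4.34, 2.82 and 6.0, for the adipocyte list 1.04, 4.19 and 1.08, and for mitosis -2.08, -3.31 and -2.24.

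The mean levels of Acta1, Myog and Ckm at day 0 were lower in the other cells than in control cells, a difference that was not tested here. Acta1 was at 1.54 ± 0.19 FPKM at day 0 and 727 ± 96.7 FPKM at day 7 in NFIA cells, and at 16.1 ± 0.689 and 4832 ± 232 FPKM in Δpro#3 cells (SD, n = 3). The difference of its log2 fold change was -4.64 against NFIA and -4.62 against Δpro#3 cells (adjusted p = 7.53e-15 and 2.11e-13). Myog was at 1.96 and 199.6 FPKM in NFIA cells and at 16.3 and 489 FPKM in Δpro#3 cells, with differences of -3.09 and -1.82. Ckm was at 0.0393 and 50.8 FPKM in NFIA cells and at 0.803 and 513 FPKM in Δpro#3 cells, with differences of -1.801 and -4.33. The mean levels of these 3 genes at day 7 were lower in NFIA than in control cells, while their log2 fold changes were larger. Ccnb1 fell less in control than in NFIA cells (difference 1.42, adjusted p = 9.8e-05), and the difference from Δpro#3 cells was 0.38 (adjusted p = 0.237). The mean Ccnb1 levels in control and NFIA cells were 19.9 and 55.7 FPKM at day 0 and 3.14 and 3.37 FPKM at day 7. Igf2 rose more in control cells than in either (differences 1.1 and 0.66).

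Fabp4 was at 11386 ± 697 FPKM at day 7 in NFIA cells and at 688 ± 631 FPKM in Δpro#3 cells (SD, n = 3), where the replicates spread widely. Its change was smaller in control than in NFIA cells (difference -2.95, adjusted p = 0.00203) and was not shown to differ from that of Δpro#3 cells (difference -0.064 ± 0.742 (SE), adjusted p = 0.953). Angptl4 differed by -4.502 from NFIA and -2.07 from Δpro#3 cells, and Pparg by -0.33 and 1.205. The adipocyte list had a median of 1.04 in control, 4.19 in NFIA and 1.08 in Δpro#3 cells in this fit. Col3a1 differed by 0.27 from NFIA cells and by -0.14 from Δpro#3 cells, the latter short of the threshold (adjusted p = 0.179).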

How the data were processed

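Polyadenylated RNA of control C2C12 cells at day 0 and day 7 was sequenced with 3 replicates each. Groups, days and replicates were taken from the labels. The authors aligned stranded reads to mm9 with STAR 2.5.3a, kept unique matches, took the gene counts of the matching strand and deposited them as FPKM, not scaled between samples. When divided by what 1 fragment is worth, 100% of the values came out whole (tolerance 0.02 fragments), which gave the fragments per gene. Of the 24825 symbols, 26 had turned into dates and 2 were repeated. All were kept.

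FPKM were compared as log2(FPKM + 1) with limma 3.58.1 (trended moderated variances, 2-sided p, Benjamini-Hochberg over all genes with a mean of at least 0.5 FPKM) in R 4.3.3. The study also adds 1 and selects genes over 3-fold. Differences between cell types were interaction terms. Shares of fragments were compared by exact permutation with scipy 1.17.1, and figures were drawn with matplotlib 3.10.9. A gene at 0 was set against 3 fragments over the group. Genes with 1 to 3 fragments at day 0 are given with their values and no ratio. Depth limits values under the filter, and counting error is the only error that recovered fragments describe.

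Named genes are the 12 largest rises and 12 largest falls without overlap and with a mean of at least 1 FPKM, the 4 highest at each day, members of the 25 lists, genes of the study, and the 5 largest differences between cell types. The lists and the comparison were chosen with earlier results of these data known. On simulated data of 12163 genes, 100% of the genes changed 5-fold and 0% of those changed 2-fold were called, and no unchanged gene was. The 0% was fixed in advance, since 2-fold lies under the 3-fold threshold. Only genes with a mean of at least 5 FPKM were changed. The simulated spread was the same for all genes and not taken from the samples, so that the simulation does not give error rates for the real data. Alternatives were an added 0.1, median-ratio scaling, no filter, a minimum mean of 5 FPKM, a fit of 18 samples, no trend, a replicate block, leaving out each sample, and limma-voom on the recovered fragments. Coordinates of genes are mm9, and promoters are from RefSeq (GRCm38.p6), which were not combined. Some genes are not reported here.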

Additional observations from a re-analysis of the deposited data

Results flagged for a closer look

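The change from day 0 to day 7 differed between cell types by a test of the difference (limma interaction, Benjamini-Hochberg adjusted p under 0.05) for 8835 of 12408 genes between control and full-length NFIA-expressing cells and for 5550 between control and Δpro#3 mutant-expressing cells. Values are the log2 fold change of control cells minus that of the other cells.

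Against full-length NFIA cells, the 5 largest differences were those of Cyp2e1 (-8.68), Rbp4 (-7.66), Cmbl (-7.01), Ifi27l2a (-6.66) and Ppp1r1a (-6.46), all more negative in control cells. In NFIA cells Cyp2e1, an enzyme of xenobiotic metabolism, was listed at 0 at day 0 and at 551 ± 79.95 FPKM at day 7 (SD, n = 3), and in control cells at 0 and 0.338 ± 0.0925 FPKM. Rbp4, the carrier of retinol, was at 0.881 and 386 FPKM in NFIA cells and at 0.0325 and 0.049 FPKM in control cells. Of the genes followed in all cells, Myog (-3.09), Acta1 (-4.64), Ckm (-1.801), Pparg (-0.33), Fabp4 (-2.95) and Angptl4 (-4.502) were more negative in control cells, and Ccnb1 (1.42), Igf2 (1.1) and Col3a1 (0.27) more positive.

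Against Δpro#3 cells, the 5 largest differences were those of the complement component C3 (-4.98), the calcium pump regulator Sln (-4.88), the Z-disc protein Pdlim3 (-4.67), Acta1 (-4.62) and Actc1 (-4.51). Pdlim3 was at 4.19 ± 0.721 FPKM at day 0 and 288 ± 7.54 FPKM at day 7 in Δpro#3 cells (SD, n = 3), and at 121 ± 3.05 and 269.6 ± 46.99 FPKM in control cells. Sln was at 0.716 and 79.6 FPKM in Δpro#3 cells and at 0 and 0.619 FPKM in control cells. Myog (-1.82), Ckm (-4.33) and Angptl4 (-2.07) were also more negative in control cells, and Pparg (1.205) and Igf2 (0.66) more positive.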

How the results depend on the processing

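Of 14 alternatives, adding 0.1 in place of 1 and limma-voom on the recovered fragments moved the counts most: 701 genes were called higher and 746 lower with 0.1 added, and 742 and 765 with limma-voom. With 0.1 added, the members called lower were 2 of the inhibitors of myogenic factors (3 by limma-voom), 4 of the fusion list, 11 of DNA replication, 2 of the thyroid hormone and insulin list and 5 of the interferon list, and those called higher were 2 of the interferon list and 4 of amino acid release and autophagy. The same numbers came from limma-voom where no other is given. Genes over 3-fold more positive in control than in NFIA cells were 632 with 0.1 added, and against Δpro#3 cells 220 were more positive and 366 more negative. Limma-voom was not run for these differences. A minimum mean of 5 FPKM left 1 neuromuscular junction gene and 0 collagens and matrix genes called higher and 3 Notch and Wnt genes called lower, since fewer genes were tested. Of the 25 list medians, 13 kept their sign but moved by more than 1 SD over the day 7 samples with 0.1 added, 13 by limma-voom, 15 without a filter, 14 with a minimum of 5 FPKM and 8 with median-ratio scaling. Those near 0 changed sign in 2 cases, to 0.027 for the neuromuscular junction without a filter and to 0.025 for the cyclins with a minimum of 5 FPKM. The cause was not tested. Leaving out each sample in turn gave 440 to 460 genes higher, 370 to 392 lower and 9300 to 9764 at an adjusted p under 0.05, and 1 to 2 matrix genes higher. Of the named genes, Id1 changed sign without day 7 replicate 3 (-0.11, adjusted p = 0.0294) and Clec3b without day 0 replicate 2 (0.15, adjusted p = 0.419), over ranges of -0.11 to 0.23 and -0.53 to 0.15 with each sample left out. Of genes not called, Tcf4, among others, passed 3-fold with 0.1 added (-1.62), by limma-voom (-1.62) and without day 7 replicate 2 (-1.62), Tpm2 with median-ratio scaling (1.61), Dmd (7.82) and Ppargc1a (1.69) by limma-voom. Median-ratio scaling shifted the median of all genes by 0.058. The replicate block gave 454 genes higher, 378 lower and 9695 at an adjusted p under 0.05. The same-numbered samples deviated together with correlations of -0.031 to 0.049, against -0.076 to 0.051 for different numbers, so the numbers are taken as names only.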
